A study of Mus musculus with 6 samples.

Results

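The genes described here are the MHC class I heavy chains H2-K1, H2-D1, H2-Q6, H2-Q7, H2-Q10, H2-T22 and H2-T23 and their common light chain, beta-2 microglobulin (B2m), in mouse liver. They were taken from the deposited expression table by gene symbol, as a set chosen with earlier results of these data known, and all 8 were among its 8390 genes. RNA from whole livers of mice of the inbred C57BL/6 strain was sequenced. The LV group comprised 3 liver samples from mice given 3e8 transducing units of a lentiviral vector (LV, a gene transfer particle derived from a retrovirus) by intravenous injection, and the liver was collected 4 h later. The untreated group held 3 liver samples whose treatment is labelled as none. The labels give neither the sex nor the age of the mice, and no mock-injected sample is among the 6, so effects of the vector and of the injection cannot be told apart.

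A class I molecule is a heavy chain that spans or is anchored to the cell membrane, paired with B2m and, in most cases, holding a short peptide made by the proteasome and carried into the endoplasmic reticulum by the TAP transporter. H2-K1 and H2-D1 are the classical chains of C57BL/6 mice, which show peptides to CD8 T cells, whereas the Q and T chains are non-classical, with narrower ligands and receptors. Interferons are known to raise transcription of classical class I genes through an interferon-responsive element next to a binding site for NF-kB (the kB site) in the proximal promoter. Hepatocytes are known for low surface class I and for secreting the soluble chain H2-Q10.

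The stretch of promoter that holds these elements is shown for the members because it is shared by some of them and altered in others. The sequences are RefSeq promoter entries of assembly GRCm38.p6, each read 5′ to 3′ on the strand of its gene. All 8 members matched an entry by symbol. In the first 4, the first run of capitals marks the 10 letters of the kB site and the second the 10 letters of the adjoining interferon-responsive element; H2-Q10 has only the second. In the last 3, capitals mark a match to the general core of such elements (GAAA, any 2 bases, GAAA, or its reverse complement).
H2-K1: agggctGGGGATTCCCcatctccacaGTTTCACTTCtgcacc
H2-D1: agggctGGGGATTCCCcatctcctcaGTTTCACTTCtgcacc
H2-Q6: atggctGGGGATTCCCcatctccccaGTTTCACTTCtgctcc
H2-Q7: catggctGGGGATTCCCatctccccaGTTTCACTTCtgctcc
H2-Q10: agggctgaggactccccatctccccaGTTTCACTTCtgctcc
H2-T22: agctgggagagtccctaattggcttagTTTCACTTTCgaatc
H2-T23: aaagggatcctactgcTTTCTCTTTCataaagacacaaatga
B2m: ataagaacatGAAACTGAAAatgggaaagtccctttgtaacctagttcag

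These windows lie at chr17:34000423-34000464 on the minus strand (H2-K1), and on the plus strand at chr17:35262917-35262958 (H2-D1), chr17:35424671-35424712 (H2-Q6), chr17:35439015-35439056 (H2-Q7) and chr17:35469907-35469948 (H2-Q10). The window of H2-T22 is chr17:36042919-36042960 and that of H2-T23 is chr17:36032800-36032841, both on the minus strand, and B2m, outside the MHC, has chr2:122147538-122147587 on the plus strand. Searched on both strands over the 300 bases of each entry, the kB letters as printed for H2-K1 were found in 4 of the 8 members (H2-K1, H2-D1, H2-Q6 and H2-Q7) and in 0.107% of all 32851 entries. The second run of letters, a motif added after the promoters had been read, was found in these 4 and in H2-Q10, and in 0.14% of all entries. Over the 42 bases shown, H2-D1 differed from H2-K1 at 1 position, H2-Q6 at 3 and H2-Q10 at 4. Of those in H2-Q10, 2 fell inside the kB site, G2A and T6C (the base of H2-K1 first, positions counted from the first base of the site), which gave GAGGACTCCC. The general core was found in H2-T22, H2-T23 and B2m and in 3.44% of all entries; it can overlap the second run of letters, but no member matched both. A stricter core (GAAA, any base, TGAAA), also added after the promoters had been read, was found in H2-T22 and B2m and in 0.791% of all entries. The letters CCAAT, bound by NF-Y, were found in 7 members, all but H2-Q10, and in 37.4% of entries. A match describes letters only, and binding of no factor was measured. Each search took only the letters given, so other forms of a kB site in H2-Q10, H2-T22, H2-T23 and B2m were not looked for.

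Values are a deposited whole-number score per gene and library that appears to be scaled for library size and transcript length, so that levels are compared between genes on that scale. Column totals of the score lay between 497295 and 526009; they are not read totals, so the sequencing depth behind each value is unknown and counting intervals are left out. Of 8386 genes tested with limma on log2(value + 1), 3.76% were called higher after the vector and 0.87% lower, a call being a Benjamini-Hochberg adjusted p under 0.05 throughout. In 8.65% of genes every LV value lay above every untreated value, and in 11% every LV value lay below. LV replicate 3 and untreated replicate 2 stood apart from the other libraries of their groups. Elovl3, a fatty acid elongase that is male-biased in liver, had 0, 1 and 169 in the LV libraries and 4, 159 and 2 in the untreated ones. Values of the class I genes are therefore also given without these 2 libraries where that changed a call. The labels do not say that the replicates were separate animals beyond numbering them, so the p-values speak only of the spread among these 6 libraries, which may be technical.

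The chains H2-Q6, H2-T22 and H2-T23 were called higher in LV livers. The classical chains and H2-Q7 lay above the untreated range without passing the test, and neither the hepatocyte chain H2-Q10 nor B2m moved beyond its spread. The calls do not divide non-classical from classical chains by size, as H2-D1 (0.58) and H2-T23 (0.61) had similar log2 fold changes. With single libraries left out, the call held in 4 of 6 fits for H2-T22, 1 of 6 for H2-Q6 and 0 of 6 for H2-T23. Of the 8 members, 3 were called higher (H2-Q6, H2-T22 and H2-T23), 0 lower, and 5 did not pass, against 3.76% of all genes called higher. In 6 members every LV value lay above every untreated value, against 8.65% of all genes, and 6 were higher at an unadjusted p under 0.05, against 9.21%. The median log2 fold change was 0.60 over the members and -0.07 over all genes tested. Whole liver was sequenced, so a change in the number of cells that carry a transcript and a change in the RNA per cell cannot be told apart.

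**Figure D1:**
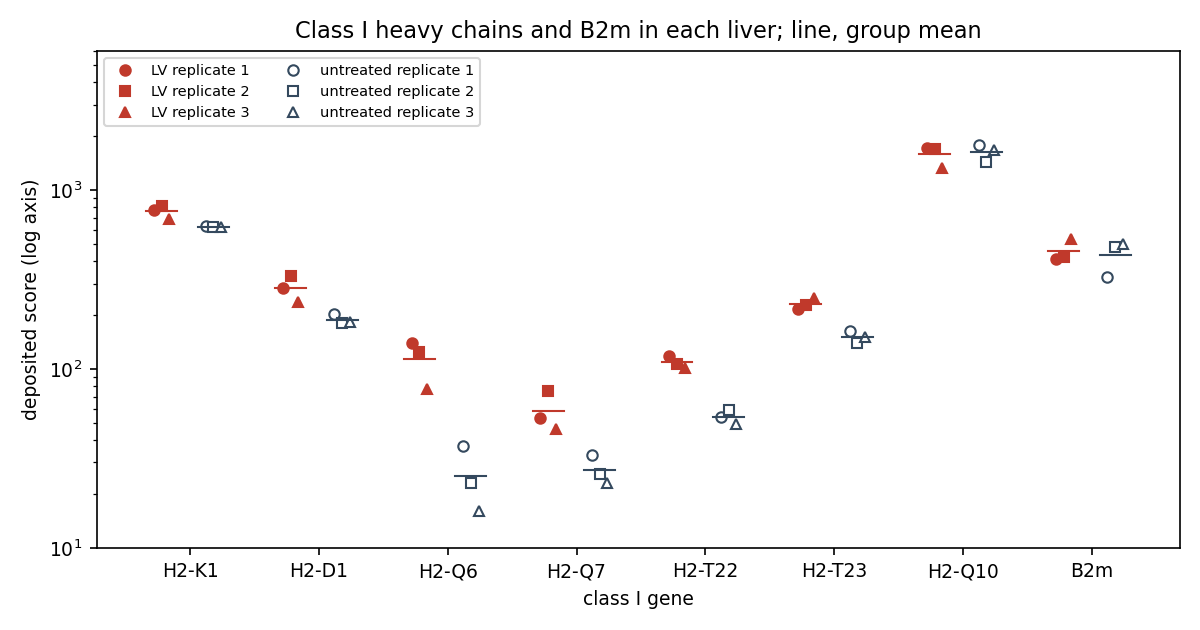
Deposited score (log axis) of the 8 class I genes in each LV library (filled) and each untreated library (open), with group means as lines. The LV points lie above all untreated points for H2-K1, H2-D1, H2-Q6, H2-Q7, H2-T22 and H2-T23, and the groups overlap for H2-Q10 and B2m.

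The classical chains were not called, although their groups did not overlap. H2-K1 had scores of 769, 817 and 690 in LV livers, against 626, 619 and 625 in untreated livers. The untreated values of H2-K1 were nearly identical, and the lowest LV value, from replicate 3, lay closest to them. Its log2 fold change was 0.28 ± 0.10 (SE; limma adjusted p = 0.194). H2-D1 had 285, 332 and 238 in LV livers, against 204, 180 and 182 in untreated livers. Here too LV replicate 3 was the lowest of its group. The log2 fold change of H2-D1 was 0.58 ± 0.14 (SE; limma adjusted p = 0.0995, and between 0.0522 and 0.259 when single libraries were left out). The ratio of H2-D1 to H2-K1 was 0.371, 0.406 and 0.345 in LV livers and 0.326, 0.291 and 0.291 in untreated livers, so that it was above the untreated range in every LV library.

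The Qa-2 chains, encoded by neighbouring and closely similar Q genes, included the member with the largest fold change. H2-Q6 had 139, 125 and 77 in LV livers, against 37, 23 and 16 in untreated livers. The lowest LV value was more than the highest untreated one, though the spread within each group was wide. H2-Q6 rose by a log2 fold change of 2.16 ± 0.37 (SE; limma adjusted p = 0.0384). Among genes ranked by mean score it stood at 542 in LV livers and at 2220 in untreated livers. H2-Q7 had 53, 75 and 46 in LV livers, against 33, 26 and 23 in untreated livers, again without overlap. Its log2 fold change was 1.04 ± 0.23 (SE) and did not pass (limma adjusted p = 0.0734), but passed when libraries were rescaled by total (0.0448), by median of ratios (0.0283) or by upper quartile (0.0288), or when only genes with a mean of at least 5 were tested (0.0441). H2-Q8, another Qa-2 gene that is not a member, had 24, 28 and 22 in LV livers and 13, 11 and 10 in untreated livers, and rose by 1.06 ± 0.14 (SE; limma adjusted p = 0.0158). The call of H2-Q6 held when LV replicate 3 was left out (adjusted p = 0.049) and was lost when any other single library was left out, with adjusted p of 0.152 and 0.165 for LV replicates 1 and 2 and of 0.0571, 0.123 and 0.117 for untreated replicates 1, 2 and 3; without LV replicate 3 and untreated replicate 2 together it was 0.159.

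How reads were divided among these genes is uncertain, because no source used here gives the counting method. In GENCODE M21 transcripts, 32% of the 50-base windows of H2-Q6 and 34.9% of those of H2-Q7 also occurred in a transcript of another gene, most often in each other. For H2-T22 the share was 44.7%, mostly with H2-T10, and for H2-T23 it was 28.8%. It was 14.3% for H2-D1, 8.79% for H2-K1 and 8.03% for H2-Q10, and 0 of the 811 windows of B2m were shared. No share was obtained for H2-Q8, so whether its rise is separate from the values of H2-Q6 and H2-Q7 is not known. The summed score of H2-Q6, H2-Q7 and H2-Q8 was 216, 228 and 145 in LV livers and 83, 60 and 49 in untreated livers. The lowest LV sum was above the highest untreated one.

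Both T chains rose, with little spread between libraries. H2-T22, a chain that binds no peptide and is a ligand of some gamma-delta T cells, had 118, 107 and 101 in LV livers, against 54, 59 and 49 in untreated livers. Every LV value was well above the untreated range, and the spread within groups was small. H2-T22 rose by a log2 fold change of 1.00 ± 0.10 (SE; limma adjusted p = 0.00827). That call was lost narrowly without LV replicate 2 (adjusted p = 0.0544) or without untreated replicate 1 (adjusted p = 0.0504). H2-T23 encodes Qa-1, which shows peptides cut from the leaders of other class I chains to the receptor CD94/NKG2A of natural killer cells. It had 216, 227 and 250 in LV livers, against 162, 139 and 151 in untreated livers. Unlike in H2-T22, LV replicate 3 held the highest value. H2-T23 rose by 0.61 ± 0.10 (SE; limma adjusted p = 0.0327). This call was lost when any single library was left out, with adjusted p of 0.0746, 0.132 and 0.062 without LV replicates 1, 2 and 3 and of 0.0761, 0.0763 and 0.116 without untreated replicates 1, 2 and 3; without LV replicate 3 and untreated replicate 2 together it was 0.0853.

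H2-Q10 was the most abundant member in both groups and was not called. Its scores were 1713, 1699 and 1325 in LV livers and 1779, 1439 and 1680 in untreated livers. The lowest value of each group came from the library with high Elovl3, and the groups overlapped throughout. The log2 fold change was -0.05 (95% interval -0.44 to 0.34; limma adjusted p = 0.88), a range that admits a modest rise or fall. Its sign was positive without LV replicate 3 (0.07), without untreated replicate 1 (0.01) and when scaled by median of ratios (0.00066). Part of the spread followed the split of the libraries by Elovl3. The libraries with low Elovl3 averaged 1706 in LV livers and 1730 in untreated livers (2 each), and the pair with high Elovl3 had 1325 in LV livers and 1439 in untreated liver.

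B2m, the light chain with which these heavy chains pair, was likewise not called. It had 414, 421 and 533 in LV livers and 325, 482 and 498 in untreated livers. Untreated replicate 1 was the lowest of all 6 libraries, and the other untreated values lay within the LV range. The log2 fold change of B2m was 0.08 (95% interval -0.44 to 0.61; limma adjusted p = 0.853). It turned negative without untreated replicate 1 (-0.11) or without LV replicate 3 (-0.03). The interval still admits a change as large as that of H2-D1.

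The order of the members by level differed between the groups only among the less abundant chains. In LV livers mean scores ran from H2-Q10 (1579) through H2-K1 (759), B2m (456), H2-D1 (285), H2-T23 (231), H2-Q6 (114) and H2-T22 (109) to H2-Q7 (58). In untreated livers the order was H2-Q10 (1633), H2-K1 (623), B2m (435), H2-D1 (189), H2-T23 (151), H2-T22 (54), H2-Q7 (27.3) and H2-Q6 (25.3). Among neighbours in these orders, the library values of H2-D1 and H2-T23 and of H2-Q6 and H2-T22 overlapped in LV livers, and those of H2-Q7 and H2-Q6 in untreated livers.

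The make-up of the heavy chain transcripts differed between the groups. The summed score of the 7 heavy chains was 3293, 3382 and 2727 in LV livers and 2895, 2485 and 2726 in untreated livers, and these overlapped. Without H2-Q10 the sums were 1580, 1683 and 1402 in LV livers, all above the 1116, 1046 and 1046 of untreated livers. H2-Q10 made up 50.3% ± 1.72 of the heavy chain score in LV livers and 60.3% ± 2.10 in untreated livers (SD, n = 3 each), with no overlap between the groups. H2-Q6 made up 3.58% ± 0.706 in LV livers and 0.930% ± 0.346 in untreated livers, and H2-T22 3.48% ± 0.283 in LV livers and 2.01% ± 0.315 in untreated livers. The share of H2-K1 overlapped, at 24.3% ± 0.980 in LV livers and 23.2% ± 1.65 in untreated livers, but of the sum without H2-Q10 it was lower with no overlap, at 48.8% ± 0.357 in LV livers and 58.3% ± 1.97 in untreated livers. Shares of a sum are tied to each other, so a smaller share of H2-Q10 is no sign of less H2-Q10 transcript.

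**Figure D2:**
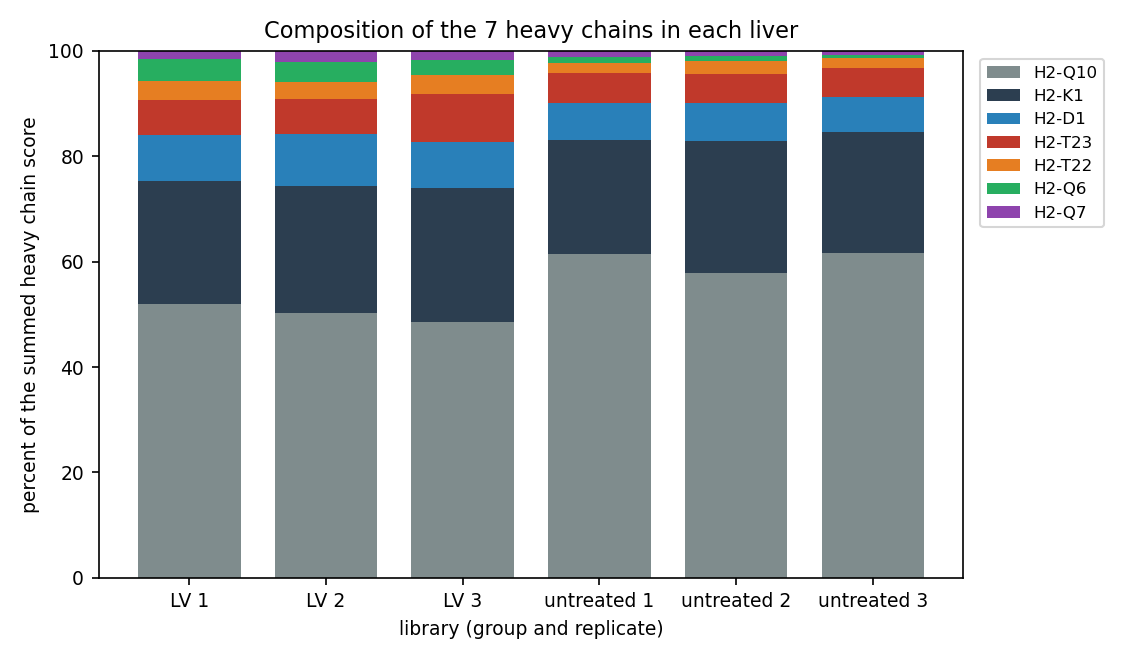
Percent of the summed deposited score of the 7 heavy chains held by each chain, 1 bar per library, LV libraries left and untreated libraries right. H2-Q10 holds 48.6% to 52% in LV libraries and 57.9% to 61.6% in untreated libraries.

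The score of B2m relative to the heavy chains overlapped between the groups. The ratio of B2m to the 7 summed chains was 0.126, 0.124 and 0.195 in LV livers and 0.112, 0.194 and 0.183 in untreated livers. Relative to the chains without H2-Q10 it was 0.262, 0.25 and 0.380 in LV livers and 0.291, 0.461 and 0.476 in untreated livers, where LV replicate 3 lay above untreated replicate 1.

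Differences between members were tested on the log2 ratio of each pair across libraries. In 18 of 28 pairs the ratio did not overlap between LV and untreated livers. The pairs share members and so are not independent, and no share over pairs of other genes was computed. The smallest p that an exact two-sided permutation test can give with 3 against 3 is 0.1, which these 18 reached (adjusted p = 0.156 over the 28 pairs), so none could pass. H2-Q6 stood apart from each of the other 7 members in this way. Its fold change exceeded that of H2-Q7 by 1.11 and that of B2m by 2.07 on the log2 scale. H2-T22 exceeded H2-Q10 by 1.05, which the test reports as -1.05 for H2-Q10 minus H2-T22, and H2-D1 exceeded H2-K1 by 0.30 (-0.30 for H2-K1 minus H2-D1). H2-D1 and H2-T23 differed by -0.03 (exact permutation p = 1, adjusted p = 1), with overlapping ratios.

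**Figure D3:**
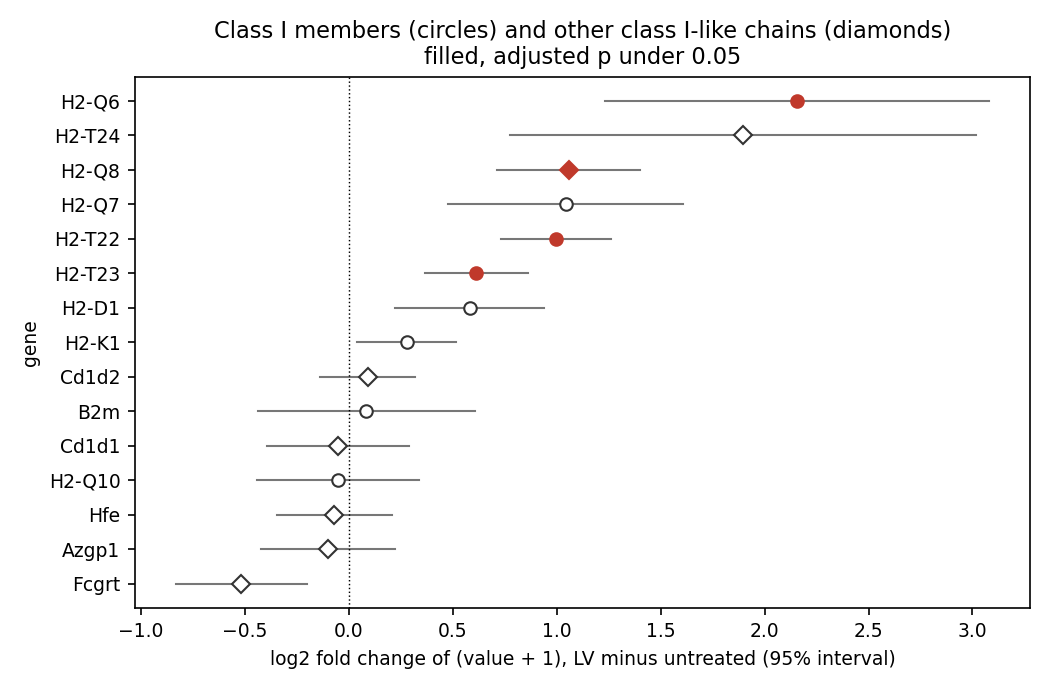
Log2 fold change of (value + 1), LV minus untreated, with 95% intervals from limma, for the 8 class I members (circles) and 7 other class I or class I-like chains (diamonds); filled symbols passed an adjusted p under 0.05. H2-Q6 (2.16), H2-Q8 (1.06), H2-T22 (1.00) and H2-T23 (0.61) passed, and the intervals of B2m and H2-Q10 include 0.

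Of 33 other class I and class I-like chains listed, 7 were in the table, of which 1 (H2-Q8) was called higher, 0 lower and 6 did not pass. Their median log2 fold change was -0.05, beside -0.07 over all genes, of which 3.76% were called higher. H2-T24, a T chain, had 6, 6 and 18 in LV livers and 2, 2 and 1 in untreated livers. LV replicate 3 held the highest value, 3 times that of the other LV libraries, and the log2 fold change of 1.90 ± 0.45 (SE) did not pass (limma adjusted p = 0.0898); it passed without LV replicate 3 (1.42, adjusted p = 0.0478) and under rescaling by column total (0.0449), upper quartile (0.0385) or the median of ratios (0.0303). The call of H2-Q8 was lost without LV replicate 1 (adjusted p = 0.0757), LV replicate 2 (0.0716), untreated replicate 2 (0.069) or untreated replicate 3 (0.0662), and also with both high-Elovl3 libraries removed (0.114). Fcgrt, the neonatal Fc receptor that recycles antibody and albumin and also pairs with B2m, had 57, 69 and 73 in LV livers and 94, 87 and 104 in untreated livers. All its LV values were below the untreated ones, with a log2 fold change of -0.52 ± 0.13 (SE; limma adjusted p = 0.0983). The lipid-presenting chains Cd1d1 (-0.05, adjusted p = 0.86) and Cd1d2 (0.09, adjusted p = 0.613), the iron regulator Hfe (-0.07, adjusted p = 0.761) and the secreted chain Azgp1 (-0.10, adjusted p = 0.704) had overlapping groups and were not called by limma.

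Several genes that supply peptides to class I molecules rose. Of 15 measured genes for peptide transport, loading and trimming, 3 were called higher, against 3.76% of all genes. The other 12 did not pass, and 0 were called lower (median log2 fold change 0.07). The transporter subunits Tap1 (108, 105 and 72 in LV livers and 14, 14 and 13 in untreated livers; limma adjusted p = 0.00171) and Tap2 (51, 44 and 33 in LV livers and 17, 16 and 15 in untreated livers; adjusted p = 0.0148) rose. Tapasin (Tapbp), which bridges TAP and the heavy chain, rose by 1.40 ± 0.22 (SE; limma adjusted p = 0.0319). Its relative Tapbpl had 48, 37 and 22 in LV livers and 15, 13 and 12 in untreated livers (adjusted p = 0.0815), and the trimming peptidase Erap1 had 29, 27 and 27 in LV livers and 19, 26 and 16 in untreated livers (adjusted p = 0.256). The general chaperones of the same complex lay near 0, with fold changes of -0.02 for Calr, 0.02 for Canx and -0.01 for Pdia3 (adjusted p = 0.951, 0.944 and 1). The 3 calls fell to 1 when any library other than LV replicate 3 was left out.

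Of 5 immunoproteasome and activator genes, 3 were called higher, against 3.76% of all genes, and 2 did not pass (median log2 fold change 1.51). The catalytic subunits Psmb8 (1.79 ± 0.23 SE, limma adjusted p = 0.0142), Psmb9 (2.17 ± 0.23, adjusted p = 0.00867) and Psmb10 (1.51 ± 0.25, adjusted p = 0.0351) rose. The activator subunits Psme2 (1.11, adjusted p = 0.101) and Psme1 (0.50, adjusted p = 0.215) did not pass, with LV values all above untreated ones. The 3 calls fell to 1 without LV replicate 1, untreated replicate 1 or untreated replicate 2, and to 0 without LV replicate 2 or untreated replicate 3. The constitutive subunits that these replace, Psmb5, Psmb6 and Psmb7, gave 0 calls in limma and 0 at an unadjusted p under 0.05, with fold changes of 0.06, -0.20 and 0.01. Psmb6 had 101, 99 and 86 in LV livers, all below the 109, 103 and 116 of untreated livers, and the other subunits overlapped.

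Of 15 measured regulators of class I transcription, 6 were called higher, against 3.76% of all genes. The other 9 did not pass, and 0 were called lower (median log2 fold change 0.50). Stat2, which carries type I interferon signals to the nucleus, had 61, 59 and 55 in LV livers and 21, 20 and 18 in untreated livers (limma adjusted p = 0.00144). Irf9, which binds DNA together with Stat2, had 33, 32 and 34 in LV livers and 8, 13 and 8 in untreated livers, and rose by 1.70 on the log2 scale (adjusted p = 0.00987). Irf1, which binds the interferon-responsive element of class I promoters, had 92, 81 and 77 in LV livers and 21, 17 and 15 in untreated livers (limma adjusted p = 0.00178). Nfkb1, a subunit of the factor that binds the kB site printed above, rose by 1.04 and Rfx5, a subunit of the factor RFX, by 1.07 (adjusted p = 0.00987 and 0.0173); Rfx5 lay at only 7, 6 and 7 in LV livers and 3, 3 and 2 in untreated livers. Rela, the usual partner of Nfkb1, did not pass at a log2 fold change of 0.50 (adjusted p = 0.0773). The other listed RFX subunits, Rfxap (-0.09) and Rfxank (0.16), overlapped between the groups and were not called. Among NF-Y subunits, Nfya (0.21) and Nfyb (-0.22) overlapped too. All LV values of Nfyc lay below the untreated ones (-0.38, limma adjusted p = 0.188). The 6 calls fell to 3 without LV replicate 1 or LV replicate 2. Nlrc5, the class I transactivator, was not among the genes listed in the table.

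Class II genes, which present peptides from outside the cell, gave 0 calls among 4 measured genes in limma and 0 at an unadjusted p under 0.05, with a median of -0.41. H2-Ab1 had 18, 32 and 12 in LV livers and 42, 25 and 19 in untreated livers (adjusted p = 0.587). H2-Aa (-0.44, adjusted p = 0.617), H2-Eb1 (-0.17, adjusted p = 0.857) and the invariant chain Cd74 (-0.38, adjusted p = 0.589) overlapped too. Of 11 measured genes for delivery of class I to the cell surface, 0 passed in limma and 0 had an unadjusted p under 0.05 (median -0.05); the smallest p belonged to Sar1a (0.25, adjusted p = 0.454), Bcap31 (-0.26, 0.455), Ergic1 (-0.21, 0.526), Sar1b (-0.15, 0.582) and Rab11a (-0.08, 0.599).

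**Figure D4:**
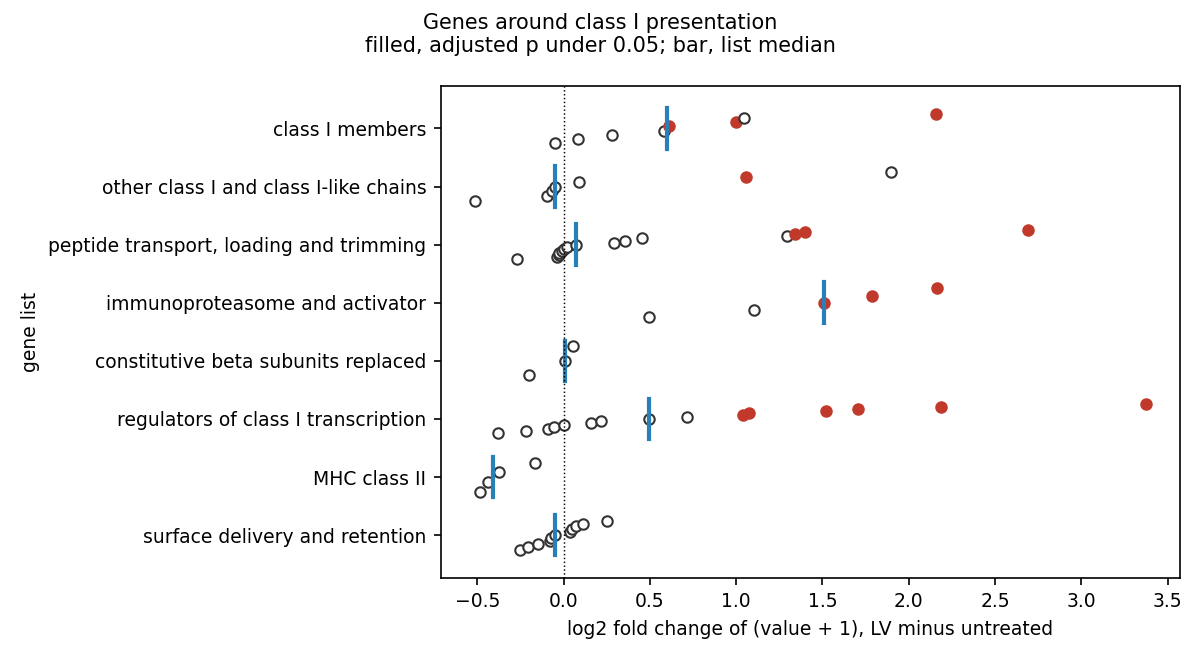
Log2 fold change of (value + 1), LV minus untreated, of every measured gene in 8 lists around class I presentation, 1 point per gene, with list medians as bars; filled points passed an adjusted p under 0.05. The immunoproteasome list has the highest median (1.51), the class I members lie at 0.60 and the class II list at -0.41.

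Cells other than hepatocytes also carry class I, and the summed levels of their measured markers overlapped between the groups. The 12 measured of 15 listed macrophage and Kupffer cell markers summed to between 222 and 420 in LV livers and between 304 and 439 in untreated livers, and 11 of 11 sinusoidal endothelial markers to between 153 and 230 in LV livers and between 225 and 258 in untreated livers. The 3 measured of 6 pan-leukocyte markers (Ptprc, Laptm5 and Tyrobp) summed to between 21 and 39 in LV livers and between 22 and 29 in untreated livers, and 8 of 8 stellate cell markers to between 79 and 145 in LV livers and between 83 and 122 in untreated livers. The median log2 fold change was -0.57 over the macrophage and Kupffer cell markers, of which 9 of 12 were negative, and -0.33 over the sinusoidal endothelial markers, beside -0.07 over all genes. None of the 15 T and natural killer cell, 6 B cell or 11 neutrophil and monocyte markers was listed in the table, so the part of such cells was not tested. The single markers of these measured non-hepatocyte lists with every LV value above every untreated one were Lyz2 (86, 101 and 66 in LV livers, against 64, 50 and 51 in untreated livers; limma adjusted p = 0.174) and Lyve1 (10, 5 and 5 in LV livers, against 3, 3 and 2 in untreated livers; adjusted p = 0.131). Every LV value lay below every untreated one for Clec4f, Vsig4 and Cd163 of Kupffer cells, Clec4g of sinusoidal endothelium and Lrat and Dcn of stellate cells, none of them called by limma. Over all genes tested, 11% lay wholly below in this way and 8.65% wholly above. Vsig4 had 5, 10 and 7 in LV livers, against 17, 15 and 18 in untreated livers (limma adjusted p = 0.0693). The part of these cells in the class I values was not tested. The 12 hepatocyte markers were all present and summed to between 79293 and 92936 in LV livers and between 84074 and 107808 in untreated livers; Hnf4a and Fgb lay above the untreated range and Tat and Cyp3a11 below it, with limma adjusted p of 0.160, 0.0533, 0.214 and 0.439.

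Members were also compared by their pattern over the 6 libraries. Pearson r of log2(value + 1), given as a description over 6 libraries that share a treatment split, was 0.99 between H2-D1 and H2-K1, 0.98 between H2-Q7 and H2-D1 and 0.90 between H2-T23 and H2-T22. H2-Q10 had r between -0.19 and 0.22 with the other heavy chains, and B2m had -0.76 with H2-Q10. Of 2753 other genes with a mean of at least 20, those most like H2-K1 were Tnfrsf1a, a receptor of tumour necrosis factor, and H2-D1 (r = 0.991 and 0.986), and those most like H2-D1 were Tnfrsf1a and H2-K1 (0.993 and 0.986). H2-Q6 was most like Clic4 and Tcirg1, a subunit of the vacuolar proton pump (0.990 and 0.989), and H2-Q7 most like Wars, a tryptophanyl-tRNA synthetase, and H2-D1 (0.990 and 0.985). H2-T22 was most like D4Wsu53e and Parp12 (0.9997 and 0.9991). H2-T23 was most like Id3, a helix-loop-helix inhibitor, and the chemokine Cxcl1 (0.980 and 0.976). Hmgcs1, an enzyme of cholesterol synthesis, was among the genes nearest to H2-Q10 (0.990), and those nearest to B2m were the co-chaperone Dnaja2 and the decapping enzyme Dcps (0.990 and 0.965). For the 8 members the nearest gene had an r between 0.980 and 0.9997, H2-Q10 and B2m included.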

How the data were processed

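The authors deposited 1 table of whole-number values for 8390 genes in 6 liver libraries (3 LV, 3 untreated), treated here as a score because no label or header names the unit. They look like rounded values corrected for depth and length. At means of 2 to 5 the replicate variance divided by the mean was 0.246 (LV) and 0.238 (untreated), too low for counted reads, and the first percentile of the mean score fell with transcript length, being 6.17 in the shortest decile of genes and 1 in the longest. Libraries were made with an Illumina TruSeq kit per the labels' protocols, and the submitters' processing notes name mm9; aligner, annotation and counting method: not given in the sources used here. Promoter sequences and transcripts come from another build (GRCm38) and were not joined to the table by position.

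The 8386 genes reaching 1 in 3 or more samples were fitted by group as log2(value + 1) in limma 3.58.1 (R 4.3.3; variance trend on intensity), two-sided, adjusted over all genes by Benjamini-Hochberg. Fold changes are LV minus untreated on that scale and understate changes of low genes. The fit was tested on simulated data, where the share of false calls exceeded the nominal level and many changes of 1 on the log2 scale were missed. Exact permutation tests used scipy 1.17.1. Sums, ratios and shares over members carry no p. The members and lists were chosen with earlier results of these data known. Named genes were the members, all measured class I-like chains, up to 5 genes of smallest p in each other list and the 2 genes most like each member. Some results that this rule covers are not reported here. Calr, Canx, Pdia3, Rela, the RFX and NF-Y subunits and single marker genes were named after their values were seen. Alternatives were quantile normalization, other scalings, a pseudocount of 0.1, other filters, a replicate block and left-out libraries; a heavy chain sum without H2-Q10 and 2 motifs were added after seeing the data.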

Additional observations from a re-analysis of the deposited data

How the results depend on the processing

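The 3 calls among the class I members became 1 with a replicate block (H2-Q6, adjusted p = 0.0298), 1 without LV replicate 3 and untreated replicate 2 together (H2-T22, adjusted p = 0.0441), and 0 to 2 with single libraries left out. The count over all genes (388) was 156 with the block and between 130 and 433 with single libraries left out. The labels state no pairing of the samples. Deviations from the group means correlated at 0.28, -0.47 and -0.34 for numbers 1, 2 and 3. LV replicate 3 correlated most with untreated replicate 2 (0.61), the other library with high Elovl3. These values therefore cannot show whether samples of the same number were handled together. With the replicate block the adjusted p was 0.0583 for H2-T22 (log2 fold change 1.00) and 0.154 for H2-T23 (0.61), and calls fell to 0 of other class I-like chains, 1 of peptide transport and loading and 0 of immunoproteasome genes. Scaling by column total, median of ratios or upper quartile gave 2 calls each among other class I-like chains, and leaving out both high-Elovl3 libraries gave 0. Those scalings and the filter on a mean of at least 5 brought H2-Q7 past the threshold at fold changes of 1.06, 1.10, 1.06 and 1.04. Without both high-Elovl3 libraries H2-Q6 (2.39) and H2-T23 (0.50) were not called. The share of higher genes among all calls was 81.2%, 92.9% with the block and 69.5% without both high-Elovl3 libraries. The cause of these changes was not tested.

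With single libraries left out, log2 fold changes lay between 1.88 and 2.46 for H2-Q6, 0.93 and 1.06 for H2-T22, 0.56 and 0.67 for H2-T23, 0.85 and 1.19 for H2-Q7, 0.47 and 0.70 for H2-D1, 0.22 and 0.35 for H2-K1, -0.14 and 0.069 for H2-Q10 and -0.11 and 0.19 for B2m. H2-Q10 reversed to 0.00066 under median of ratios. Over all 15 alternatives the other 6 members kept a positive sign. With single libraries left out, calls in the lists lay between 0 and 2 for other class I-like chains, 1 and 4 for peptide transport and loading, 0 and 3 for the immunoproteasome and 3 and 6 for regulators, which had 7 under median of ratios. The difference in the log2 ratio of B2m to heavy chains (-0.13) lay between -0.37 and 0.02, and was -0.45 with H2-Q10 outside the sum. Rounded values and unknown depth limit low genes such as H2-T24.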

Other observations

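Within the LV group the members did not share 1 order. LV replicate 3 held the lowest value of 6 members (H2-K1, H2-D1, H2-Q6, H2-Q7, H2-Q10 and H2-T22) and the highest value of H2-T23 and B2m. That library is also the LV library with high Elovl3 (169). In the pair of libraries with high Elovl3, 1 LV and 1 untreated, the log2 difference was 1.70 for H2-Q6, 0.77 for H2-T22, 0.84 for H2-T23, 0.40 for H2-D1 and 0.16 for H2-K1. In the other libraries, 2 LV and 2 untreated, it was 2.39 for H2-Q6, 1.11 for H2-T22, 0.50 for H2-T23, 0.67 for H2-D1 and 0.34 for H2-K1. The direction was thus the same on both sides of that split for these 5 chains, and whether their size differs between the sides was not tested, because the first side holds 1 library per group.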
